A study of Mus musculus with 346 samples.

Results

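The 10 genes described here are members of the Notch pathway, the receptors Notch1, Notch2 and Notch3, the ligands Jag1, Jag2 and Dll1, the effectors Hes1, Hey1 and Heyl, and the DNA-binding factor Rbpj. They were chosen by symbol after the Entrez gene numbers of the count tables had been mapped to mouse gene symbols, and all 10 were found among the 27179 genes counted. Expression was measured in 346 single mammary epithelial cells of untreated FVB/NJ mice, an inbred laboratory strain, with the Fluidigm C1, a microfluidic chip that holds each captured cell in its own chamber. There were 144 cells of pre-pubertal mice aged 2 weeks, 136 of pubertal mice aged 4.7 to 4.9 weeks and 66 of adult mice aged 10 weeks, and all carried the label total epithelium. Cells of the study beyond these 346 were not analysed here. Several mice were pooled for each sort and the labels do not name the mouse or the chip of a cell, so each stage counts as 1 sample, no test was made, and differences between mice, chips and stages cannot be told apart.

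Notch receptors are transmembrane proteins that are activated by ligands of the Jagged and Delta families on a neighbouring cell. Ligand binding lets proteases release the intracellular part of the receptor, which enters the nucleus, joins Rbpj and a Mastermind coactivator, and turns on target genes such as the repressors of the Hes and Hey families. In the mammary gland the pathway is known for its part in luminal fate, and Dll1 is a known basal cell ligand.

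The members lie at the following places in the mouse genome (build GRCm38.p6, the same assembly as mm10), and all are protein-coding. The receptor genes are Notch1 (chr2:26457902-26503822), Notch2 (chr3:98013538-98150367) and Notch3 (chr17:32120820-32166896). The ligand genes are Jag1 (chr2:137081451-137116520), Jag2 (chr12:112907803-112929812) and Dll1 (chr17:15367354-15376932). The effector genes are Hes1 (chr16:30065357-30067796), Hey1 (chr3:8663359-8667038) and Heyl (chr4:123233556-123249870), and Rbpj lies at chr5:53555779-53657445.

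RefSeq promoter windows, 250 bases before to 50 after a transcription start, were at hand for 7 of the 10 members (Notch1, Notch2, Notch3, Jag1, Jag2, Dll1 and Rbpj). The windows of Notch1 (chr2:26503773-26504072, minus strand), Jag1 (chr2:137116471-137116770, minus strand), Dll1 (chr17:15376883-15377182, minus strand) and Rbpj (chr5:53590096-53590395, plus strand) are shown because the differences by stage and by cell class below turn on these genes. Dll1 and Rbpj have 2 windows each, of which the one farther upstream is shown. Capitals mark matches, on either strand, to TGGGAA, the core of the sequence bound by Rbpj, or to CACNAG, the N-box bound by Hes proteins.
Notch1: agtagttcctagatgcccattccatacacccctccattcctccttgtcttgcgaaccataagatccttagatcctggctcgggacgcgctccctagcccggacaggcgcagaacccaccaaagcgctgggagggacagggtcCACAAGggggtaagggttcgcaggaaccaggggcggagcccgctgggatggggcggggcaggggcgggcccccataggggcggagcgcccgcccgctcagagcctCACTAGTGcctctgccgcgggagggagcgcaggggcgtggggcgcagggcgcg
Jag1: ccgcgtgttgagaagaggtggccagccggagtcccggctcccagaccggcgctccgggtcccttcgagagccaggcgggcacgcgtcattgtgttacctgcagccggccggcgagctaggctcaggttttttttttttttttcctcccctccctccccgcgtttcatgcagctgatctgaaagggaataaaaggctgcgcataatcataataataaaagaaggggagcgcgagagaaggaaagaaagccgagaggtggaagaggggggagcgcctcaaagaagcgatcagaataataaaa
Dll1: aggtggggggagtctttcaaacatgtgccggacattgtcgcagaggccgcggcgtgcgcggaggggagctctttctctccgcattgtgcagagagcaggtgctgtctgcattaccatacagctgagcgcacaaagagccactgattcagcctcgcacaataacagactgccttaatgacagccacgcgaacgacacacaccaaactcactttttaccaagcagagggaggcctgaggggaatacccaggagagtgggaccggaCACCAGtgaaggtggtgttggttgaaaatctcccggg
Rbpj: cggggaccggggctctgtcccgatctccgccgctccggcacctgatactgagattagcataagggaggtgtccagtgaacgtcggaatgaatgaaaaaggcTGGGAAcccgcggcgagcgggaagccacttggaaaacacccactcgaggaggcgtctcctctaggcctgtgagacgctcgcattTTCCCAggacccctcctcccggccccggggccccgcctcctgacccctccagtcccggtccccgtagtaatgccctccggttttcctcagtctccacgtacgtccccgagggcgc
Of 32851 mouse promoter windows of this length, 25.6% held TGGGAA and 42.5% held CACNAG. Among the members with a window, TGGGAA was found only at Rbpj itself, with 2 matches in the window shown. Both Rbpj windows lie within the gene range given above. CACNAG was found 3 times at Notch1, where 2 of the matches overlap, 2 times at Notch3, and once each at Notch2 and Dll1. Jag1 and Jag2 held neither motif. A match is a run of letters and was not tested for binding.

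Cells entered the comparisons if at least 100000 reads fell on the analysed genes and at least 1500 genes were detected, which left 116 pre-pubertal, 119 pubertal and 44 adult cells. The median depth of these cells was 296684, 575191 and 334886 reads, and the range over all of them was 109394 to 1189786. Levels are counts per 1000000 summed reads of a group (CPM), and the range in brackets is the exact 95% Poisson interval. Genes were compared with each other as CPM per 1000 bases of gene length (RPKM). A cell was said to hold a gene if it had a read after each cell had been thinned at random to 100000 reads, and the share is given with its exact 95% Clopper-Pearson interval. For a count of 0 the share that 3 counts would give is stated as well. These intervals cover counting error only, since amplified reads without molecular identifiers are not independent molecules. At the same 100000 reads, adult cells still showed fewer genes, with a median of 2166 against 2698 at puberty and 2849 before it. Over 5328 genes the share of cells with a read was a median of 8.40 points higher at puberty than in the adult, and it was higher at puberty for 71.3% of them. An adult share below the pubertal one by about that much is therefore what most genes showed.

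The label epithelial was checked against marker genes. Of 12 luminal markers the median pubertal cell held 9, the median adult cell 7 and the median pre-pubertal cell 0. The pre-pubertal cells held a median of 9 of 12 Schwann cell markers, against 1 at puberty and 1 in the adult. The summed level of those markers was 572 to 74965 CPM in single pre-pubertal cells, 0 to 135619 CPM in pubertal cells and 0 to 4359 CPM in adult cells. None of the 12 markers was at 0 in the pre-pubertal pool. Of 8 fibroblast markers the median cell held 3 before puberty and 0 at both later stages, and the summed level in single cells was 165 CPM or more before puberty and reached down to 0 later. Of 12 basal markers the median cell held 2, 2 and 6.5 at the 3 stages. Every kept pre-pubertal cell thus carried Schwann and fibroblast marker reads, and stage and that marker content cannot be told apart in any comparison with the pre-pubertal cells below.

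Notch2 was the receptor with the highest level at each stage, at 13.7 RPKM (13.3 to 14.0) before puberty, 11.5 RPKM (11.2 to 11.7) at puberty and 4.06 RPKM (3.78 to 4.35) in the adult. Notch1 followed before puberty, at 6.92 RPKM (6.66 to 7.18), and Notch3 followed at puberty, at 3.08 RPKM (2.93 to 3.23). In the adult Notch3 (2.21 RPKM, 1.97 to 2.46) and Notch1 (1.73 RPKM, 1.54 to 1.93) had intervals that did not overlap, but 1 cell gave most reads of each. In RPKM the ligand Jag1 lay above every receptor at each stage, at 109.5, 225.9 and 59.5 RPKM. The shorter effector gene Hes1 stood at 289, 100.1 and 107 RPKM, so it was above Jag1 before puberty and in the adult and below it at puberty.

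Notch1, a receptor used in cell fate choices of many tissues, was highest before puberty. Its level in single pre-pubertal cells had a median of 6.21 CPM and a highest value of 746 CPM, and 44 of 116 cells had no read. In pubertal cells the median was 0 and the highest value 335 CPM, with no read in 88 of 119 cells. In adult cells the median was also 0 and the highest value 616 CPM, with no read in 39 of 44 cells. The groups overlapped at 0 and at high values, and the pre-pubertal cells differed mainly in how many of them held the gene.

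Pooled, Notch1 stood at 65.6 CPM (63.2 to 68.2) before puberty, 11.5 CPM (10.7 to 12.3) at puberty and 16.4 CPM (14.6 to 18.3) in the adult. After 5 CPM had been added to each level, the log2 ratio of the pre-pubertal level was 2.10 over puberty and 1.72 over the adult. A single cell, adult cell 65, gave 66.1% of all adult Notch1 reads, and the adult level was 5.66 CPM when it was left out. Thinned cells with a read made up 48.3% (38.9 to 57.7) before puberty, 16.0% (9.90 to 23.8) at puberty and 9.09% (2.53 to 21.7) in the adult.

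Notch2 was lower in the adult than at either earlier stage. The median cell held 43.4 CPM before puberty, 48.0 CPM at puberty and 0.658 CPM in the adult, with highest values of 3548, 1108 and 508 CPM. The adult cells thus reached less high, and the median adult cell lay near 0. Pooled levels were 143.7 CPM (140.0 to 147.4), 120.5 CPM (117.9 to 123.1) and 42.6 CPM (39.7 to 45.7). The log2 ratio was 1.64 for pre-puberty over adult, 1.397 for puberty over adult and 0.24 for pre-puberty over puberty. The share of cells was 80.2%, 76.5% and 31.8%, so the adult share was further below the pubertal one than the 8.40 points typical of all genes. Among cells of 200000 to 600000 reads only, both ratios over the adult missed 2-fold, at 0.91 and 0.64.

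Notch3, a receptor best known from vascular mural cells and also present in mammary luminal cells, was lowest before puberty. It was read in 6 of 116 pre-pubertal cells, 32 of 119 pubertal cells and 9 of 44 adult cells, and the highest cells held 282, 703 and 683 CPM. Pooled levels were 5.89 CPM (5.17 to 6.69), 24.4 CPM (23.3 to 25.6) and 17.5 CPM (15.7 to 19.5). The log2 ratio of the pre-pubertal level was -1.43 over puberty and -1.05 over the adult. Adult cell 1 gave 72.6% of all adult Notch3 reads, and with the top cells left out the second ratio was -0.21, while the first was -1.33. The ratio for puberty over adult went from 0.39 to 1.11. Pericyte markers were read at a summed 69.1, 24.5 and 66.5 CPM, with 0 to 2496, 0 to 893 and 0 to 2724 CPM in single cells, and the pericyte gene Rgs5 was at 0 in all kept pubertal and adult cells. The pubertal and adult cells with most Notch3 reads, pubertal cell 62 and adult cell 1, held no read of the 5 pericyte markers. Pubertal cell 62 held 9846 CPM of luminal markers. Adult cell 1 held 23312 CPM of basal, 3627 CPM of luminal, 5356 CPM of fibroblast and 1126 CPM of Schwann markers. The cell type behind the Notch3 reads was not tested.

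**Figure D1:**
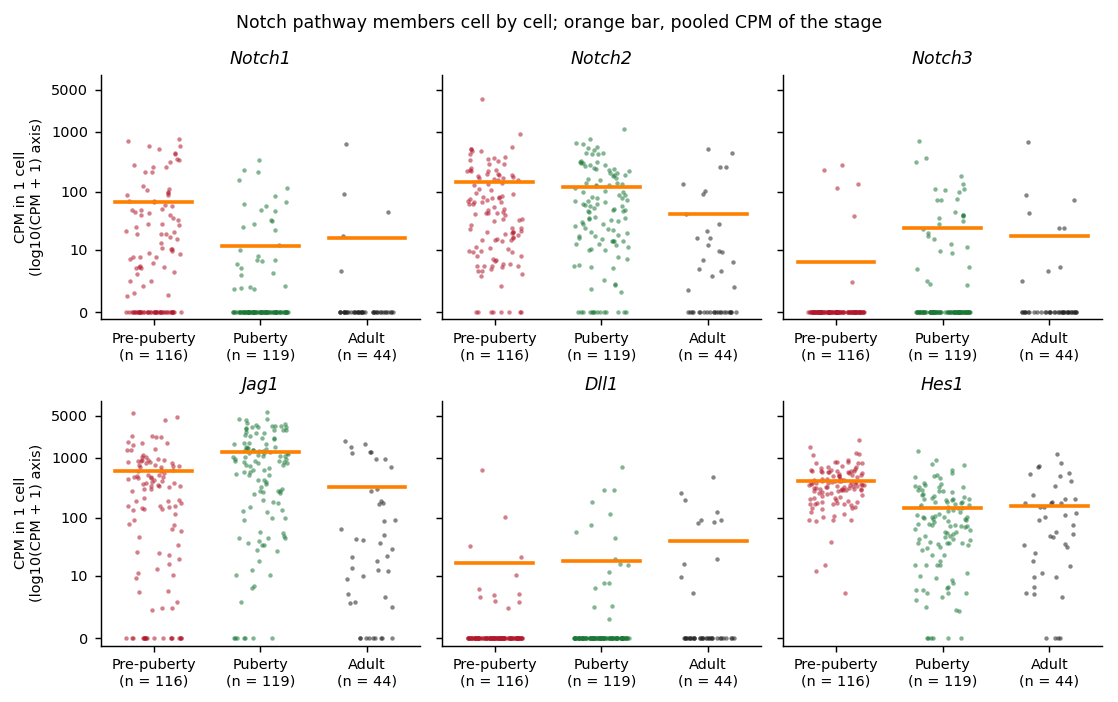
Level of 6 members in each kept cell (points, CPM on a log10(CPM + 1) axis) by stage, with the pooled level of the stage as a bar; 116, 119 and 44 cells are shown. Notch1 is read in more pre-pubertal than later cells, Jag1 has a pooled level of 1241 CPM at puberty against 326.9 CPM in the adult, and Hes1 points lie higher and closer together before puberty.

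Jag1, a Jagged ligand of the Notch receptors, was the main ligand at each stage and was highest at puberty. The lower quartile, median and highest pubertal cell held 129, 828 and 5705 CPM, and 7 of 119 cells had no read. The median and highest pre-pubertal cell held 319.6 and 5543 CPM, with no read in 19 of 116 cells. The median and highest adult cell held 26.4 and 1951 CPM, with no read in 9 of 44 cells. Adult cells were thus lower both at the middle and at the top, while the 3 groups overlapped over most of their range.

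Pooled Jag1 levels were 601.7 CPM (594.2 to 609.2) before puberty, 1241 CPM (1233 to 1249) at puberty and 326.9 CPM (318.7 to 335.2) in the adult. The log2 ratio was 1.91 for puberty over adult, and it stayed between 1.61 and 2.05 under all alternatives run for that ratio. The ratio for pre-puberty over puberty was -1.04, close to the 2-fold limit, and 5 alternatives put it between -0.996 and -0.80. The share of cells with a read was 78.4% (69.9 to 85.5), 93.3% (87.2 to 97.1) and 65.9% (50.1 to 79.5).

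Dll1 was sparse at each stage, and 1 cell carried much of its level. It was read in 12 of 116 pre-pubertal cells, 18 of 119 pubertal cells and 12 of 44 adult cells. The highest cells held 628, 717 and 474 CPM, and the median was 0 at each stage. Pooled levels were 17.2 CPM (16.0 to 18.6), 18.0 CPM (17.1 to 19.1) and 40.9 CPM (38.1 to 43.9). Pre-pubertal cell 19 held 94.0% of the reads of its stage, pubertal cell 124 held 42.9% and adult cell 58 held 49.3%, and without these cells the levels were 1.06, 10.4 and 21.7 CPM. The log2 ratio for pre-puberty over adult was -1.05 with all cells and -2.14 without the top cells, and that for pre-puberty over puberty was -0.05 and -1.35. Shares of 6.03% (2.46 to 12.0), 10.1% (5.32 to 17.0) and 22.7% (11.5 to 37.8) went the other way from most genes, which were read in fewer adult cells. The pooled level of the basal markers also differed, at 2209, 3882 and 9853 CPM, and its part in the result was not tested.

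Jag2, another Jagged ligand, was near the limit of detection. It was read in 6, 6 and 3 cells of the 3 stages, at 1.82 CPM (1.43 to 2.28), 1.12 CPM (0.887 to 1.404) and 0.802 CPM (0.449 to 1.32). Since it stayed under 10 CPM at each stage, no stage ratio of it was counted.

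**Figure D2:**
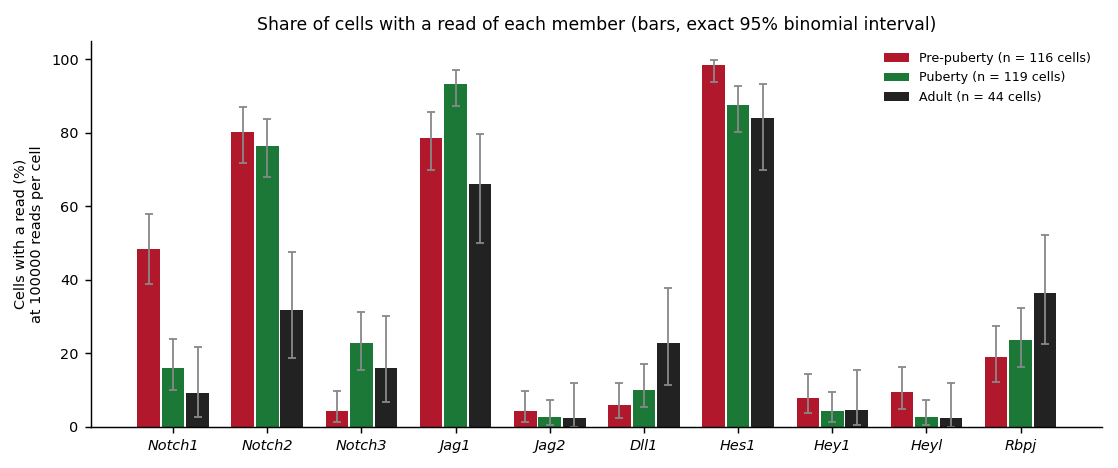
Share of cells with a read of each member after thinning to 100000 reads per cell (y axis, percent), by stage, with exact 95% binomial intervals as error bars. Hes1, Jag1 and Notch2 are read in most cells at puberty (87.4%, 93.3% and 76.5%), Notch1 is read in 48.3% of pre-pubertal cells, and the share of Dll1 is larger in the adult (22.7%) than before.

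Hes1, a repressor and a direct target of Notch in many tissues, was the effector with the highest level, and it was highest before puberty. All 116 pre-pubertal cells had a read, and their quartiles and highest value were 214, 359, 566 and 1984 CPM. The pubertal quartiles were 26.1, 79.0 and 202 CPM with a highest value of 1294 CPM, and the adult ones were 14.1, 85.0 and 208 CPM with a highest value of 1147 CPM. The lower quartile of the pre-pubertal cells thus lay above the upper quartile at both later stages. Pooled levels were 419.6 CPM (413.3 to 425.9), 145.3 CPM (142.4 to 148.1) and 155.5 CPM (149.9 to 161.2). The log2 ratio of the pre-pubertal level was 1.499 over puberty and 1.404 over the adult, and that of puberty over adult was -0.09. In cells of 200000 to 600000 reads the ratio over the adult was 0.76.

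Hey1 and Heyl, related repressors known from the vasculature and heart, were read in few cells. Hey1 was read in 10 pre-pubertal, 6 pubertal and 2 adult cells, at 14.3 CPM (13.1 to 15.5), 11.0 CPM (10.3 to 11.8) and 3.74 CPM (2.92 to 4.73). Pre-pubertal cell 57 held 79.9% of the Hey1 reads of its stage and pubertal cell 120 held 63.5%. With the top cells left out Hey1 stood at 2.91, 4.07 and 1.44 CPM, and its ratio for pre-puberty over adult went from 1.14 to 0.30.

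Heyl was read in 15 pre-pubertal, 5 pubertal and 1 adult cell, at 10.3 CPM (9.33 to 11.3), 2.14 CPM (1.81 to 2.52) and 0.0534 CPM (0.00135 to 0.298), the last from a single read. Pre-pubertal cell 2 held 77.8% of its reads, and without the top cells the ratios over puberty and adult went from 1.10 and 1.60 to 0.35 and 0.56. That cell also held the most pre-pubertal reads of Notch1 and Hes1. Without pre-pubertal cells 1 to 37, of which 12 passed the coverage limits, the 2 ratios were 0.16 and 0.66, and Heyl was at 2.98 CPM in the other 104 cells.

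Rbpj, through which the released receptor acts on DNA, was read in 35 of 116 pre-pubertal cells, 57 of 119 pubertal cells and 19 of 44 adult cells. The highest cells held 395, 543 and 2436 CPM, and the median cell had no read at any stage. Pooled levels were 13.6 CPM (12.4 to 14.7), 14.6 CPM (13.7 to 15.5) and 119 CPM (114 to 124). Adult cell 30 gave 76.1% of all adult Rbpj reads, and the adult level was 29.6 CPM when it was left out. The log2 ratios of -2.74 and -2.66 for the earlier stages over the adult were -1.13 and -1.21 without the top cells. The share of cells was 19.0% (12.3 to 27.3), 23.5% (16.2 to 32.2) and 36.4% (22.4 to 52.2), with neighbouring intervals that overlapped.

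The members were then counted against all genes, with a gene called if it had at least 10 CPM in either group and a ratio of 2-fold or more. For pre-puberty over puberty 9 members reached 10 CPM, 3 were higher (Notch1, Hes1 and Heyl) against a background of 21.4% of 9875 genes, and 2 were lower (Notch3 and Jag1) against 24.0%. For pre-puberty over adult 9 reached it, 5 were higher (Notch1, Notch2, Hes1, Hey1 and Heyl) against 31.7% of 9758 genes, and 3 were lower (Notch3, Dll1 and Rbpj) against 28.9%. For puberty over adult 8 reached it, 2 were higher (Notch2 and Jag1) against 28.4% of 9469 genes, and 1 was lower (Rbpj) against 20.6%. The median log2 ratio of the members at 10 CPM or more, in the same order of comparisons, was 0.24, 1.14 and 0.15, beside -0.12, 0.03 and 0.10 over all genes. With so few members and no replicate, the list was not set apart from other genes. The 3 comparisons share their stages, so they are not independent of each other.

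**Figure D3:**
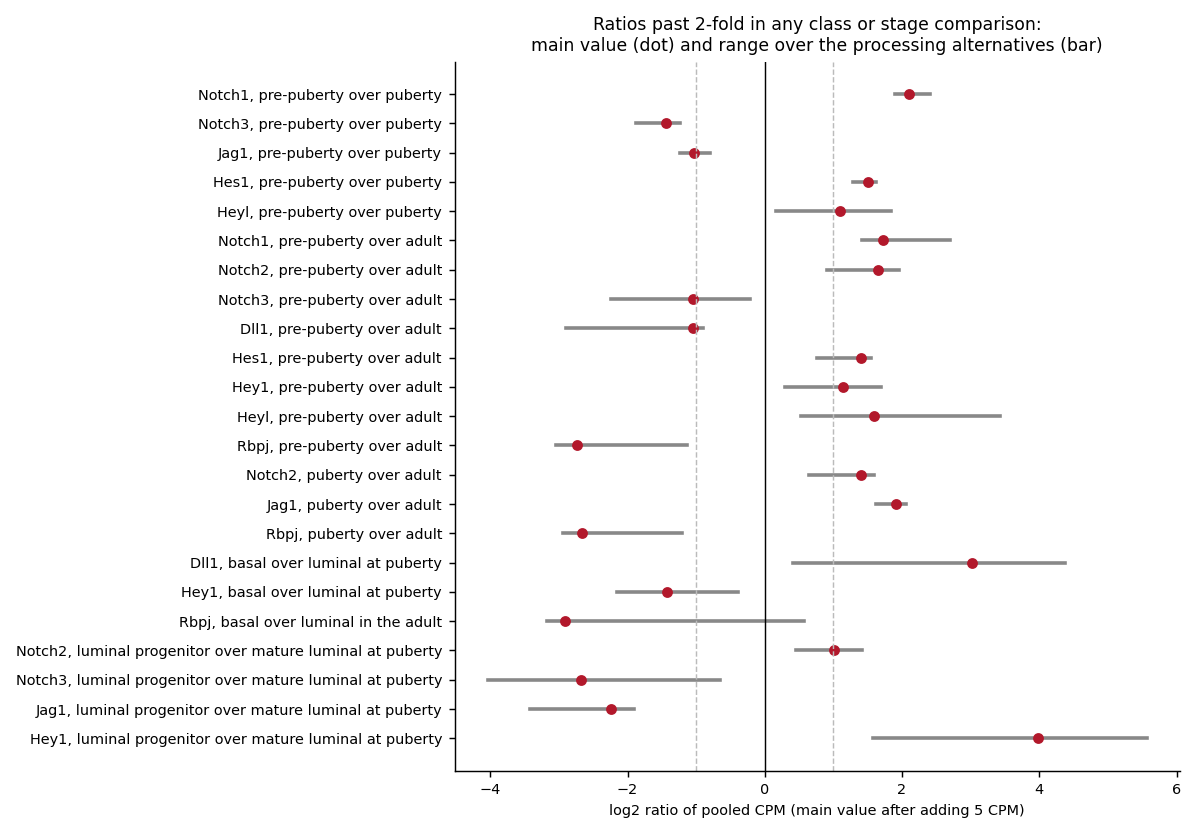
Log2 ratio of the 23 member ratios called at 2-fold or more (dots) and the range of the same ratio over the processing alternatives (bars); dashed lines mark 2-fold, and ratios against a group with no read are left out. Of these ratios 9 stay past 2-fold on the same side under every alternative and 14 do not, and the Rbpj bar of the adult classes crosses 0.

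Pubertal and adult cells were assigned to classes from marker genes, none of which is a member, as the share of 12 basal markers a thinned cell held minus its share of 12 luminal markers. A cell with a difference of 0.2 or more and at least 3 basal markers was called basal-marker, and the reverse luminal-marker. At puberty this gave 15 basal-marker, 77 luminal-marker and 27 other cells, and in the adult 15, 16 and 13. A class is a range of a score and not a proven cell type, and 13 pubertal and 9 adult cells lay within 0.1 of a limit. The median basal-marker cell held 10 of 12 basal and 3 luminal markers at puberty, with 11 and 4 for the adult. The median luminal-marker cell held 0 basal and 10 luminal markers at puberty, with 1 and 7 for the adult. The median cell of neither class held 8 basal and 8 luminal markers at both stages. Of 116 pre-pubertal cells 51 met the basal and 2 the luminal rule, and no class comparison was made there. More reads of Schwann, fibroblast, endothelial, pericyte and immune markers than of basal and luminal markers were found in 6 pubertal luminal-marker cells, 2 adult basal-marker and 2 adult luminal-marker cells.

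Dll1 was the ligand that went with basal-marker cells. At puberty it was read in 6 of 15 basal-marker cells and 4 of 77 luminal-marker cells, with highest values of 295 and 57.9 CPM. In the adult it was read in 8 of 15 basal-marker cells, with a median of 4.62 CPM and a highest value of 474 CPM, and in none of 16 luminal-marker cells. The 2 classes overlapped at 0 only in the adult, and at low values as well at puberty. Pooled levels at puberty were 45.4 CPM (41.0 to 50.2) and 1.23 CPM (0.928 to 1.60), a log2 ratio of 3.02, and 2.22 without the top cell of each class. In the adult basal-marker cells the level was 109 CPM (101 to 118), at least 277-fold higher than in luminal-marker cells when 3 counts are taken as the limit for a pool with no read. Adult cell 58 held 55.6% of the reads of its class, and without it the level was 55.6 CPM.

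Thinned cells with a Dll1 read made up 26.7% (7.79 to 55.1) of pubertal and 40.0% (16.3 to 67.7) of adult basal-marker cells, against 2.60% (0.316 to 9.07) of pubertal luminal-marker cells and 0 of 16 adult ones, for which 3 counts would give 18.8% and the exact upper bound is 20.6%. The 27 pubertal cells of neither class held Dll1 at 51.7 CPM, of which pubertal cell 124, with 8640 CPM of basal and 7241 CPM of luminal markers, was the largest source. When basal cells were taken instead as cells with Krt14 above 40 RPKM and neither Krt8 nor Krt18 above it, 5 pubertal cells remained and the ratio was 0.41.

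Jag1 was read in nearly all cells of both classes at puberty. All 15 basal-marker cells had a read, with a median of 693 CPM and a highest value of 4469 CPM, and 72 of 77 luminal-marker cells did, with a median of 773 CPM and a highest value of 5705 CPM. The classes overlapped over their whole range. Pooled levels were 993 CPM (972 to 1014) and 1251 CPM (1241 to 1262), a log2 ratio of -0.33. In the adult the levels were 364 CPM (349 to 380) and 212 CPM (202 to 222), a ratio of 0.77, and without the top cell of each class it was 1.28. Within the stages Jag1 was thus not called between the classes, and it did not single out either.

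Jag2 was read in 3 of 15 pubertal basal-marker and 2 of 77 luminal-marker cells, at 7.69 CPM (5.95 to 9.78) and 0.0672 CPM (0.0139 to 0.196), under the 10 CPM needed for a call. Pubertal cell 63 held 68.2% of the basal-marker reads. In the adult Jag2 had 3 reads in the basal-marker cells and none in the luminal-marker cells.

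Between the 2 classes, Notch3 was the receptor that went with luminal-marker cells at puberty. It had no read in any of 15 basal-marker cells, and it was read in 23 of 77 luminal-marker cells, with a highest value of 703 CPM and a pooled level of 29.8 CPM (28.2 to 31.5). That level was at least 85.3-fold higher than the 0.35 CPM that 3 counts would give in the basal-marker pool, though for 0 of 15 cells 3 counts would give a share of 20.0% and the exact upper bound is 21.8%. Pubertal cell 62 held 42.3% of the luminal-marker reads, and the level was 17.5 CPM without it. Of thinned luminal-marker cells 23.4% (14.5 to 34.4) held Notch3, and of the 27 cells of neither class 33.3% (16.5 to 54.0) did. Those 27 cells held Notch3 at 22.5 CPM (20.2 to 25.0) and a median of 8 basal markers. The lack of Notch3 reads thus holds for the basal-marker class and was not shown for all cells with basal markers. In the adult it was at 4.01 CPM in basal-marker cells and 3.67 CPM in luminal-marker cells, under the 10 CPM needed for a call, and its log2 ratio lay between -1.18 and 1.65 when other rules were used for the classes. When keratins were left out of the markers, the pubertal log2 ratio was -0.95.

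Notch2 did not differ by 2-fold between the classes at either stage. It stood at 88.1 CPM (81.9 to 94.6) in basal-marker and 121.7 CPM (118.5 to 125.0) in luminal-marker cells at puberty and at 51.3 CPM (45.9 to 57.3) and 42.0 CPM (37.5 to 46.8) in the adult. In the adult, cell 37 gave 56.9% of the basal-marker reads and cell 40 gave 57.2% of the luminal-marker reads, and the levels without them were 23.7 and 19.8 CPM. The shares of cells were 60.0% (32.3 to 83.7) and 75.3% (64.2 to 84.4) at puberty and 33.3% (11.8 to 61.6) and 31.2% (11.0 to 58.7) in the adult. Notch1 stood at 13.3 CPM (11.0 to 16.0) and 14.1 CPM (13.0 to 15.2) at puberty, a log2 ratio of -0.06. Pubertal cell 63 gave 87.7% of the basal-marker reads, and with the top cell of each class left out the levels were 1.82 and 11.3 CPM and the ratio was -1.26, past 2-fold. In the adult its 26.6 CPM in luminal-marker cells came from 1 cell, adult cell 65, and 3 of 15 basal-marker cells had a read. The adult ratio of -0.71 was 0.70 with the top cells left out.

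**Figure D4:**
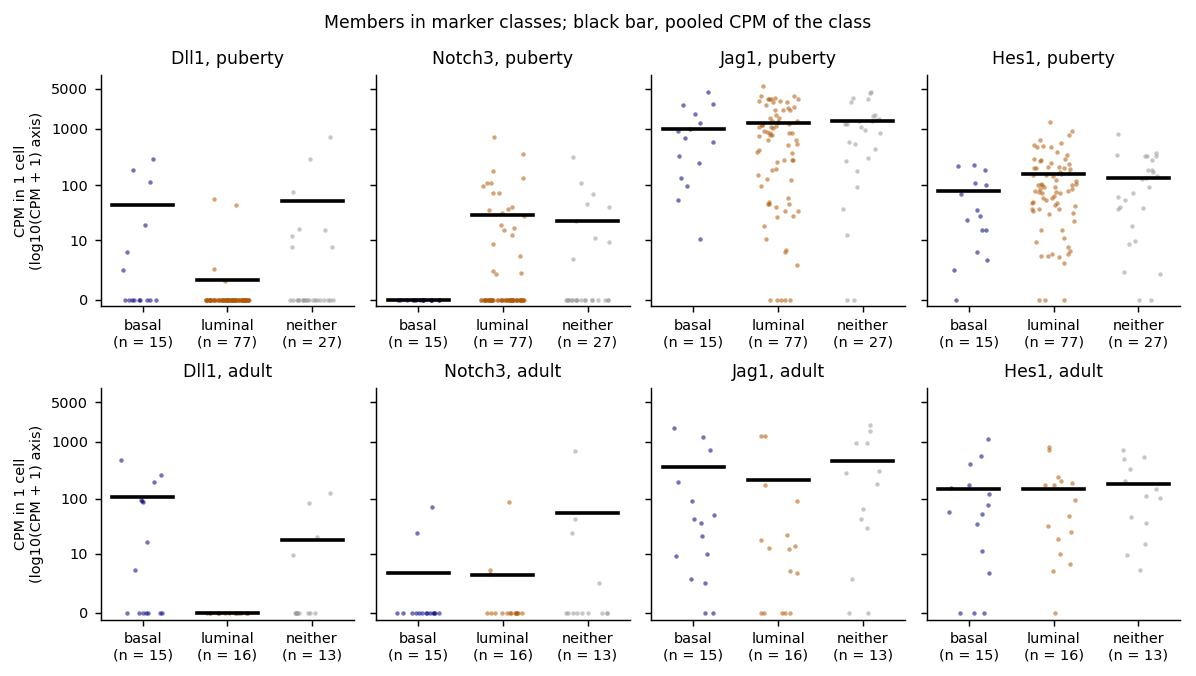
Level of Dll1, Notch3, Jag1 and Hes1 in each pubertal (top) and adult (bottom) cell (points, CPM on a log10(CPM + 1) axis) by marker class, with the pooled level of the class as a bar. Dll1 points above 0 lie mostly in basal-marker cells and cells of neither class, Notch3 has none above 0 in the 15 pubertal basal-marker cells, and Jag1 and Hes1 are spread over all classes.

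Hes1 was read in both classes. The median pubertal basal-marker cell held 28.8 CPM and the highest 228 CPM, against 87.9 and 1294 CPM for luminal-marker cells, and the pooled levels were 80.1 CPM (74.2 to 86.3) and 161.9 CPM (158.2 to 165.6). The log2 ratio of -0.97 just missed 2-fold, and without the top cell of each class it was -1.34. In the adult the levels were 147.6 CPM (138.2 to 157.4) and 146.04 CPM (137.6 to 154.9). The highest adult basal-marker cell, adult cell 5, held 35.7% of the Hes1 reads of its class, together with 2724 CPM of pericyte markers and 189 CPM of basal markers, and without it the level was 99.5 CPM. Without the cells richer in markers of other types, the adult ratio was -0.63 in place of 0.01.

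Hey1 was read in 1 of 15 pubertal basal-marker and 5 of 77 luminal-marker cells, at 2.91 and 16.4 CPM, and pubertal cell 120 held 65.7% of the luminal-marker reads. That cell held 9066 CPM of fibroblast markers beside 3073 CPM of luminal markers, and the part of the fibroblast markers in the result was not tested. Without the cells richer in markers of other types the log2 ratio went from -1.43 to -0.39. Heyl had no read in any luminal-marker cell of either stage. Rbpj stood at 12.6 CPM (10.3 to 15.2) and 19.2 CPM (17.9 to 20.5) at puberty. In the adult it stood at 30.3 CPM (26.1 to 35.0) in basal-marker and 260.9 CPM (249.5 to 272.6) in luminal-marker cells, but adult cell 30 held 85.3% of the latter. Without the top cell of each class the ratio went from -2.91 to -0.96, and Rbpj was read in 53.3% of thinned basal-marker and 25.0% of luminal-marker cells.

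For basal-marker over luminal-marker cells at puberty 8 members reached 10 CPM, 1 was called higher (Dll1) against a background of 22.6% of 9022 genes, and 2 lower (Notch3 and Hey1) against 37.9%. In the adult 6 reached it, 1 was called higher (Dll1) against 36.3% of 7912 genes, and 1 lower (Rbpj) against 37.8%. The members' median log2 ratio was -0.45 at puberty and 0.14 in the adult, beside -0.34 and -0.08 over all genes. The basal-marker pools rest on 15 cells each. These backgrounds hold both differences between the classes and the scatter of small pools, and the 2 were not told apart.

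Luminal-marker cells at puberty were split by the larger share of 8 luminal progenitor or 8 mature luminal markers into 12 luminal progenitor-marker and 62 mature luminal-marker cells, with 3 ties left out. Jag1 was lower in the former, where the median cell held 32.1 CPM and the highest 2129 CPM, than in the latter, where they held 841 and 5705 CPM. Pooled levels were 282 CPM (268.6 to 295.5) and 1355 CPM (1343 to 1367), and the log2 ratio of -2.25 stayed past 2-fold under every alternative, between -3.42 and -1.91. The share of cells with a read was 91.7% (61.5 to 99.8) and 93.5% (84.3 to 98.2), so the difference lay in the level per cell. In the adult, Jag1 had 1 read in the 6 luminal progenitor-marker cells and was read in all 10 mature luminal-marker cells, at 340.1 CPM (323.7 to 357.1). The median of those 10 cells was 20.5 CPM, and adult cell 28 gave 60.0% of their reads, which left 162.1 CPM without it.

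Notch3 also went with mature luminal-marker cells, at 34.4 CPM (32.5 to 36.4) and 24.2% (14.2 to 36.7) of cells, against 1.15 CPM (0.463 to 2.37) and 8.33% (0.211 to 38.5). Pubertal cell 62 held 44.9% of the former reads, and another random thinning of the cells for the classes gave a log2 ratio of -0.65 in place of -2.68. Notch2 was higher in luminal progenitor-marker cells by a log2 ratio of 1.00, at 210.5 against 102.7 CPM, and pubertal cell 80 held 46.0% of the former reads. Without the top cells the ratio was 0.45. In the adult Notch2 lay the other way, at 5.55 CPM in 6 luminal progenitor-marker and 64.1 CPM in 10 mature luminal-marker cells. Adult cell 40 gave 60.2% of the latter reads, and the level without it was 29.9 CPM. At puberty Hey1 stood at 87.9 against 0.879 CPM, but 2 cells held all luminal progenitor-marker reads and pubertal cell 120 held 89.9% of them. Hes1 was at 201.8 CPM (190.7 to 213.4) and 158.1 CPM (154.1 to 162.3), and its ratio went from 0.34 to -0.31 without the top cells.

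Of the members 7 reached 10 CPM in this comparison, 2 were called higher (Notch2 and Hey1) against a background of 20.5% of 8706 genes, and 2 lower (Notch3 and Jag1) against 44.4%. Their median log2 ratio was 0.34, beside -0.67 over all genes. TMM scaling, which sets the bulk of genes level, shifted ratios up by 0.34 before the 5 CPM were added, and those of the pubertal basal-marker comparison by 0.12. With TMM scaling and the added 5 CPM the ratios were -1.91 for Jag1, -2.498 for Notch3, 4.17 for Hey1 and 1.33 for Notch2, all in the same direction as before.

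Receptor and ligand were each read in many cells, and often in the same cell. After thinning, at least 1 receptor was read in 88.8%, 80.7% and 50.0% of cells over the 3 stages. For at least 1 ligand the shares were 79.3%, 94.1% and 72.7%. With separate shares this large, many cells hold both even if the genes do not go together, and whether they do was not tested. At least 1 of the 3 receptors and at least 1 of the 3 ligands were read, after thinning, in 71.6% of cells (62.4 to 79.5) before puberty, 77.3% (68.7 to 84.5) at puberty and 40.9% (26.3 to 56.8) in the adult. Hes1 was read as well in 69.8%, 68.1% and 34.1%. Jag1 and Notch2 were read together in 74 of these 83 cells before puberty, 86 of 92 at puberty and 9 of 18 in the adult. Notch1 and Notch2 were read together in 46 of 116 pre-pubertal cells, 15 of 119 pubertal cells and no adult cell of 44, for which 3 counts would give 6.82% and the exact upper bound is 8.04%. At puberty 26 of 27 Notch3 cells also held Notch2, which was read in 76.5% of all pubertal cells. Those Notch3 cells showed a median of 3022 genes after thinning, against 2663 in the other pubertal cells. Cells with neither receptor nor ligand numbered 4, 3 and 8. All of these shares depend on how many genes a cell shows, which was lowest in the adult.

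Hes1 was compared between cells with and without a read of Notch1, Notch2, Notch3, Jag1, Dll1 or Rbpj, as a description over cells of 1 sample. Jag2 was not included, and too few adult cells had a Notch1 read. At puberty the median Hes1 level was 103 CPM in the 19 cells with a Notch1 read and 77.4 CPM in the other 100 cells. It was 118 CPM in the 28 cells with an Rbpj read and 72.0 CPM in the other 91. It was 78.4 CPM in the 111 cells with a Jag1 read and 186 CPM in the other 8. In the adult it was 149.4 CPM in the 14 cells with a Notch2 read and 67.2 CPM in the other 30. As with Jag1 at puberty, the median Hes1 level was lower with a read in other pairs. Before puberty it was 358 CPM in cells with a Notch2 read and 483 CPM in those without, and 276 against 379.9 CPM for Rbpj. In the adult it was 57.8 against 121.7 CPM for Jag1, 64.0 against 93.6 CPM for Rbpj and 49.2 against 93.3 CPM for Notch3. For Dll1 it was 38.8 against 86.6 CPM at puberty and 41.9 against 106.5 CPM in the adult. Before puberty Dll1 went the other way, at 384.5 against 358.5 CPM. Only 7, 12 and 10 cells of the 3 stages had a Dll1 read, and 7 adult cells had a Notch3 read. The lower and upper quartiles overlapped in each of these pairs, from 48.4 to 257 CPM against 17.9 to 186 CPM for Notch1 at puberty, for example.

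The genes whose level went most like that of a member were looked for over the 119 pubertal cells, as Pearson's r of log2(CPM + 10) among 4785 genes read in at least 20% of thinned cells. These cells share their sample and the libraries differ in quality, and no test was made. For Jag1 they were Marcks (r = 0.535), Mrfap1 (0.387) and Srp14 (0.380). For Notch2 they were Celf2 (0.343), Uap1 (0.337) and Chchd7 (0.324), and for Notch3 Fbxo22 (0.425), Swt1 (0.390) and Pcyox1 (0.379). For Hes1 they were Fbxo3 (0.322), Jund (0.309) and Arfgef1 (0.296), and for Rbpj Rab11b (0.323), Gm20016 (0.320) and Sfmbt1 (0.319). Among the members themselves the largest r was 0.195, between Notch2 and Notch3, and r of Hes1 was 0.0307 with Notch2 and -0.111 with Jag1. The values are low and are given as a description.

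Of 44 other genes of the pathway, listed by role, 26 to 28 reached 10 CPM in a stage comparison. For pre-puberty over puberty 4 of 26 were called higher and none lower, against 21.4% and 24.0% of all genes. The sheddase Adam17, which cleaves the receptor outside the membrane, stood at 199 against 55.3 CPM, a log2 ratio of 1.76, and at 169.9 against 43.6 CPM with the top cell of each stage left out. The ligand-uptake ligase Mib2 stood at 12.6 against 1.18 CPM, but pre-pubertal cell 50 gave 53.7% of the former reads, and the level without it was 5.87 CPM. Adam10, the other sheddase, stood at 77.2 against 158.2 CPM, and its ratio of -0.99 just missed 2-fold, with the receptor convertase Furin at -0.54.

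For pre-puberty over adult 9 of 28 other pathway genes were called higher and 4 lower, against 31.7% and 28.9% of all genes. For puberty over adult 4 of 26 were called higher and 6 lower, against 28.4% and 20.6%. Poglut1, which adds glucose to the receptor, stood at 49.6, 74.2 and 286 CPM over the 3 stages, and at 33.3, 56.0 and 198.9 CPM without the top cells. The share of thinned cells with a Poglut1 read was 19.8%, 24.4% and 25.0%. It lay above 40 RPKM in 6 of 116, 17 of 119 and 5 of 44 cells, so the higher adult level came from few cells. Rfng, a Fringe that modifies the receptor further, stood at 5.23, 5.12 and 38.0 CPM, but 1 cell gave 83.7% of the adult reads and the adult level without it was 6.34 CPM. The coactivator Maml2 stood at 154.5 CPM at puberty and 49.2 CPM in the adult, where 1 cell gave 57.8% of the reads. Aph1b, of the gamma-secretase that makes the last cut, stood at 10.3 CPM at puberty and had no read in the adult, at least 64.0-fold lower there. Pubertal cell 14 gave 63.6% of its reads, and the level of 3.77 CPM without it is under the 10 CPM needed for a call.

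In basal-marker over luminal-marker cells at puberty 5 of 24 other pathway genes were called higher and 6 lower, against 22.6% and 37.9% of all genes. Adam10 stood at 16.1 against 211 CPM and was read in 4 of 15 against 50 of 77 thinned cells, and Adam17 stood at 5.36 against 55.5 CPM. Both were lower still in basal-marker cells without the top cell, at 2.22 and 1.21 CPM. Psen2, of the gamma-secretase, stood at 40.1 against 3.45 CPM, from 2 of 15 basal-marker cells. Notch4, the receptor known from endothelium, stood at 25.6 against 0.224 CPM, but pubertal cell 63 gave 96.4% of the former reads, together with 671 CPM of endothelial, 1167 CPM of Schwann and 8216 CPM of basal markers.

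In the adult classes 8 of 24 were called higher and 10 lower, against 36.3% and 37.8% of all genes, and single cells gave most reads of the genes with the largest ratios. Mib1, which drives ligand uptake, stood at 249 CPM in basal-marker cells with no read in luminal-marker cells, but adult cell 33 gave 99.9% of its reads and the level without it was 0.327 CPM. Rfng stood at 109 against 1.97 CPM, with 87.9% from adult cell 37. Hes6 stood at 0.160 against 74.6 CPM, all of the latter from 1 cell. Poglut1 stood at 0.962 against 388 CPM, and at 0.499 against 210.4 CPM without the top cells.

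In luminal progenitor-marker over mature luminal-marker cells 4 of 23 were called higher and 10 lower, against 20.5% and 44.4% of all genes. Poglut1 stood at 219.6 against 18.5 CPM, but pubertal cell 80 gave 96.7% of the former reads and the level without it was 8.31 CPM. Maml2 stood at 539 against 76.2 CPM, and at 218 against 20.1 CPM without the top cells. The corepressor Ncor1 was lower, at 12.8 against 374 CPM, with a read in 4 of 12 against 49 of 62 thinned cells. Tle1, another corepressor, had 1 read in the former and stood at 37.9 CPM in the latter.

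The inhibitor Numb stood at 29.0, 18.6 and 13.4 CPM over the 3 stages, while 34.5%, 13.4% and 50.0% of thinned cells held it, so the adult had the lowest level and the largest share. In the adult it was read in 10 of 15 basal-marker and 7 of 16 luminal-marker cells. Nrarp, a feedback inhibitor and target of the pathway, stood at 10.7, 1.28 and 2.62 CPM, and 1 cell gave 68.7% of its reads before puberty. Lfng stood at 0.319, 0.277 and 0.428 CPM, from 2, 6 and 3 cells. The ligand Dll4 stood at 0.0246, 0.0875 and 0.374 CPM, from 1 cell at each stage. Hes5, Hes7 and Mfng had no read in any kept cell. At the 3 stages 3 counts would give 0.0737, 0.0438 and 0.160 CPM, and the exact upper bounds are 0.0906, 0.0538 and 0.197 CPM.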

How the data were processed

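Single cells were captured on the Fluidigm C1, their libraries were made with Nextera XT and sequenced on an Illumina HiSeq 2000, and the authors checked by microscopy that chambers held 1 cell. The deposited files hold raw counts of read pairs per Entrez gene, which the authors made with Subread 1.4.6 and featureCounts on mm10, per the submitters' processing notes and the study's methods. No molecular identifiers were used.

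Of 27179 genes, 25275 were matched to RefSeq GRCm38.p6 symbols and 1904 were not. After removal of 15 mitochondrial and 87 ribosomal protein genes, 25173 were analysed. Cells with at least 100000 reads and 1500 genes were kept (279 of 346), and no doublet caller was run, since the chambers had been inspected. Counts were summed per stage or marker class and scaled to CPM or RPKM. Ratios were taken after adding 5 CPM, and a gene was called at 2-fold or more with at least 10 CPM in either pool. Shares were taken after thinning to 100000 reads per cell. Intervals cover counting error only. The labels name no animal, so each stage was 1 sample, and no test was made. All genes were scaled together and only Notch pathway rows are given.

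The members, marker lists and pathway list were chosen with earlier results of these data known. The 10 members were all named, and of 44 other pathway genes the 2 with the largest log2 ratio in each direction among those at 10 CPM or more were named for each comparison, with Notch4, Dll4, Lfng, Nrarp and Numb always given. Hes5, Hes7, Mfng, Hes6 and the Jag2 class values were described after their values were seen. Alternatives were another added CPM, equal weight per cell, leaving out the top cell of each pool, TMM scaling (edgeR 4.0.16 in R 4.3.3), other limits on coverage, CPM and classes, and all genes in the total. Limiting shares to cells with 2000 genes after thinning, and leaving out cells richer in markers of other types, were added after seeing the data. Python 3.11.15, numpy 2.4.6, scipy 1.17.1 and pandas 2.3.3 were used, and the scripts were tested on simulated data.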

Additional observations from a re-analysis of the deposited data

Results flagged for a closer look

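Cells below the coverage limits entered no comparison, yet held reads of the members. Summed over the 10 members, the level was 1442 CPM (1342 to 1548) in 28 pre-pubertal cells left out, against 1294 CPM in those kept. It was 924 CPM (856 to 996) in 17 pubertal cells left out, against 1590 CPM in those kept. In 22 adult cells left out it was 359.7 CPM (306 to 421), against 724 CPM in those kept. Each is above the level that 3 counts would give in these cells, 5.63, 4.01 and 6.87 CPM. The top cell gave 12.2%, 39.3% and 21.7% of the member reads in the cells left out at the 3 stages.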

How the results depend on the processing

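No paired analysis was possible because the labels give no replicate numbers that groups share and each stage counts as 1 sample. With 1 sample a stage no replicate could be left out. Of 136 counts of called members under the alternatives, 102 stayed within 1.5 times their main value and 34 did not. Of 560 log2 ratios, 323 stayed within their interval, 236 moved beyond it, and 1 that had been called changed sign. Sign changes of ratios that had not been called were counted among the others. For pre-puberty over puberty, the 2 lower members became 1 under TMM scaling, a minimum of 50 CPM, at least 200000 reads and 2000 genes, cells of 200000 to 600000 reads, all genes in the total, and without cells richer in other markers. For pre-puberty over adult, the 5 higher members became 3 without the top cells, 3 at 50 CPM and 2 at 200000 to 600000 reads, and the 3 lower ones became 1 under TMM scaling, 1 at 50 CPM and 1 with all genes in the total. For puberty over adult, the 1 lower member became 2 with 1 CPM added, under TMM scaling, at 200000 to 600000 reads and without cells richer in other markers, and the 2 higher ones became 1 at 200000 to 600000 reads. For basal-marker over luminal-marker cells at puberty, the 1 higher member became 2 with no minimum, 0 at 50 CPM and 2 with keratins left out, and the 2 lower ones became 0 at 50 CPM and 1 with keratins left out. In the adult, the 1 higher member became 2 without the top cells and 2 at a class limit of 0, and the 1 lower one became 2 at equal weight, 0 without the top cells, 0 at a class limit of 0.4 and 3 with the keratin gate. Rbpj reversed at the class limit of 0.4, from -2.91 to 0.57 (log2). For luminal progenitor-marker over mature luminal-marker cells, the 2 higher members became 1 at equal weight, 0 without the top cells, 1 with a second random thinning and 1 without cells richer in other markers, and the 2 lower ones became 1 at 50 CPM and 1 with a second random thinning. The cause of these changes was not tested. Members under 10 CPM and classes of 12 to 16 cells are limited by depth and cell number. Of 180 shares of cells, 119 stayed within their interval and 61 did not. Limited to cells with 2000 genes after thinning, the adult shares of Notch2, Jag1 and Hes1 were 37.5%, 71.9% and 93.8%.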
